A study of Mus musculus with 6 samples.

Results

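The cytosolic ribosomal protein genes encode the proteins of the large (60S) and small (40S) subunits of the ribosome in the cytoplasm. They were taken from the gene table by symbol: Rpl, Rps or Rplp followed by a number, with the S6 kinase genes (Rps6k) and rows described as pseudogenes left out. The rule found 85 genes among the 24532 of the table, 53 of the large subunit and 32 of the small subunit. The rule uses symbols and no measured value, but the family was taken up with earlier results of these data known. Fau, Rpsa and Rack1, which encode ribosomal proteins under other symbols, lie outside the rule and are given separately.

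The study asked how injected recombinant human cytoglobin, a heme protein of the globin family, affects gene expression in injured mouse liver. The rhCYGB group was 3 mice given injections of rhCYGB (2 mg/kg, 2 each week), and the vehicle group 3 mice given normal saline on the same plan. All 6 were wild-type C57BL/6 mice fed for 4 weeks on chow containing DDC (0.1%), a dihydrocollidine compound that injures bile ducts. Injections covered the last 2 weeks, and the liver was collected 2 days after the final one. No mouse on a normal diet was analysed here, and the sources used here do not give the animals' age or sex. Poly(A) RNA from whole liver was sequenced, 1 library a mouse, and each sample's label carries a different mouse number, which makes the replicates separate animals. Replicates are numbered 1 to 3 in order of deposition, a name that pairs no animals across groups.

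Each ribosome carries 1 copy of most of these proteins, and their mRNAs are among the most abundant in a hepatocyte, a cell that exports plasma proteins. Their mRNAs are short and begin with a C followed by a run of C and T, the 5′ terminal oligopyrimidine (TOP) tract. The kinase complex mTORC1 controls their translation through that tract, so the level of a TOP mRNA and the rate of its translation can differ. Polyadenylated mRNA levels, as measured here, say nothing of the protein.

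A run of C and T can be read at or near the annotated start of several members described below. The run includes the start base, a C, in Rplp2 and Rps6. It begins 1, 2 and 1 bases after the start base in Rpl12, Rpl13a and Rpl22l1. Whether such a run is the TOP tract of the mRNA was not tested. RefSeq promoter windows on GRCm38.p6 (the build named mm10 in the tables), each 250 bases before to 50 after a start, were matched by gene ID to 64 of the 85 genes, with 76 starts in all. The lines that follow show 50 bases before the start and 25 from it on, 5′ to 3′. Capitals mark the longest run of 6 or more bases that are all C or T and reach within 15 bases of the start. Rplp2 belongs to the P stalk, Rps6 is the substrate of S6 kinase, and Rpl12 and Rpl13a are 60S proteins with large differences between the groups. Rpl22l1 and Rpl7l1 are paralogs with log2 fold changes of 0.95 and 0.25, the first with a run and the second without. Rpl41, among the most abundant members, had none either.
Rplp2 (chr7:141447601-141447675, + strand): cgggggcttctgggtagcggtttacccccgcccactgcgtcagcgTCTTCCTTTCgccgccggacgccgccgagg
Rps6 (chr4:86857343-86857417, - strand): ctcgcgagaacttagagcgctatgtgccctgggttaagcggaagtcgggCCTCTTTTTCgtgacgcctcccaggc
Rpl12 (chr2:32961662-32961736, + strand): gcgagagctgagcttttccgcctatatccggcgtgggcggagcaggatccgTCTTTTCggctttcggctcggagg
Rpl13a (chr7:45128721-45128795, - strand): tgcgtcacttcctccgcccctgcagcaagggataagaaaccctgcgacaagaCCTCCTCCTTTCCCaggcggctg
Rpl22l1 (chr3:28805458-28805532, + strand): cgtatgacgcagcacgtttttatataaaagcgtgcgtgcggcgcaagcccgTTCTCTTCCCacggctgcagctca
Rpl7l1 (chr17:46782632-46782706, - strand): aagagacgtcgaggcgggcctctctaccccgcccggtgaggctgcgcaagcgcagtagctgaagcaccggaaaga
Rpl41 (chr10:128549144-128549218, - strand): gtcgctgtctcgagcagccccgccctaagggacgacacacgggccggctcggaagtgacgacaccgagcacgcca
A run of that kind lay at 1 or more starts of 44 of the 64 genes (68.8%), against 41.9% of the 27025 genes with a RefSeq window. The letters CTTTC, searched on the gene's strand within 15 bases of the start, were found for 17 of the 64 (26.6%), against 4.91% of all genes. CCGGAAG, searched on both strands of the whole window, was found for 25 of the 64 (39.1%), against 9.93%. TATAAA, on the gene's strand of the window, was found for 7 of the 64 (10.9%), against 9.77%. These shares describe the letters in the windows and no binding was measured.

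The 6 libraries differed in ways that cut across the groups. Their totals were 58422095 to 72431373 estimated counts. TMM scaling factors, which correct for a few genes taking a large part of a library, were 1.18, 0.744 and 0.630 in rhCYGB replicates 1 to 3, against 1.45, 1.07 and 1.18 in vehicle replicates 1 to 3. Each library also had its own trend of level on transcript length. Over the genes that are not members, the slope of log2 CPM (counts scaled by the library's TMM-corrected total, centred on each gene's mean) per doubling of length was 0.233, -0.350 and -0.323 in rhCYGB replicates 1 to 3, and 0.405, -0.0190 and 0.0538 in vehicle replicates 1 to 3. The slope was above 0 in rhCYGB replicate 1, as in vehicle replicate 1, and below 0 in rhCYGB replicates 2 and 3. The ribosomal RNA gene Rn45s, left over in poly(A) libraries, held 0.321, 0.443 and 1.74% of counts with rhCYGB and 0.319, 0.326 and 0.225% with vehicle, highest in rhCYGB replicate 3.

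Ribosomal protein mRNA made up a larger part of rhCYGB replicates 2 and 3 than of the other libraries. The 85 genes held 2.08, 4.99 and 5.53% of the estimated counts in rhCYGB replicates 1 to 3, against 2.13, 2.89 and 2.89% in vehicle replicates 1 to 3. The mean was 4.20 ± 1.86% with rhCYGB and 2.64 ± 0.440% with vehicle (SD, n = 3 each), and the groups overlapped because rhCYGB replicate 1 was the lowest of the 6. In TPM (transcripts scaled to the same total in each library, after division by length), the share was 5.02, 9.96 and 10.9% with rhCYGB and 5.44, 6.52 and 6.58% with vehicle. The share was given no test, being a sum over genes chosen with earlier results known. In whole liver, fewer cells of a type and less RNA per cell cannot be told apart.

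**Figure D1:**
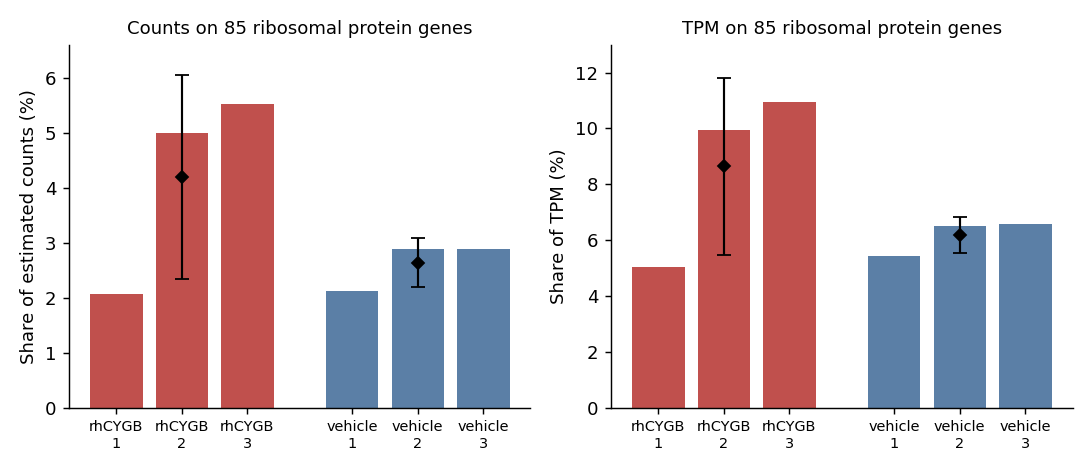
Share of each library on the 85 cytosolic ribosomal protein genes, in estimated counts (left, %) and in TPM (right, %). Bars are single mice, and the diamonds with error bars are group means ± SD (n = 3). rhCYGB replicates 2 and 3 stand above all vehicle libraries, and rhCYGB replicate 1, at 2.08% of counts, stands below them.

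The members stood high or low together from library to library. A filter on low counts kept 82 of the 85, among 14415 genes in all. Rpl10l had no count in any library. Rpl3l had 0 to 8 counts and Rpl39l 0 to 18 counts per library, and neither passed the filter. Relative to each gene's own mean over the 6 libraries, the median member stood at -0.88, 1.10 and 1.50 log2 CPM in rhCYGB replicates 1 to 3, and at -1.10, -0.20 and -0.35 in vehicle replicates 1 to 3. In rhCYGB replicate 2, 82 of 82 members exceeded the highest vehicle CPM, and in rhCYGB replicate 3, 81 did, the exception being Rps27. In rhCYGB replicate 1 only Rpl7l1 did so, and 4 members lay below the lowest vehicle CPM. In TPM, 64 members of rhCYGB replicate 1 lay below the lowest vehicle value and none above the highest. These counts were not made over all genes, so no share stands beside them. Other genes of like short length, given below, had median deviations of -0.39, 0.63 and 0.52 log2 CPM in rhCYGB replicates 1 to 3.

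**Figure D2:**
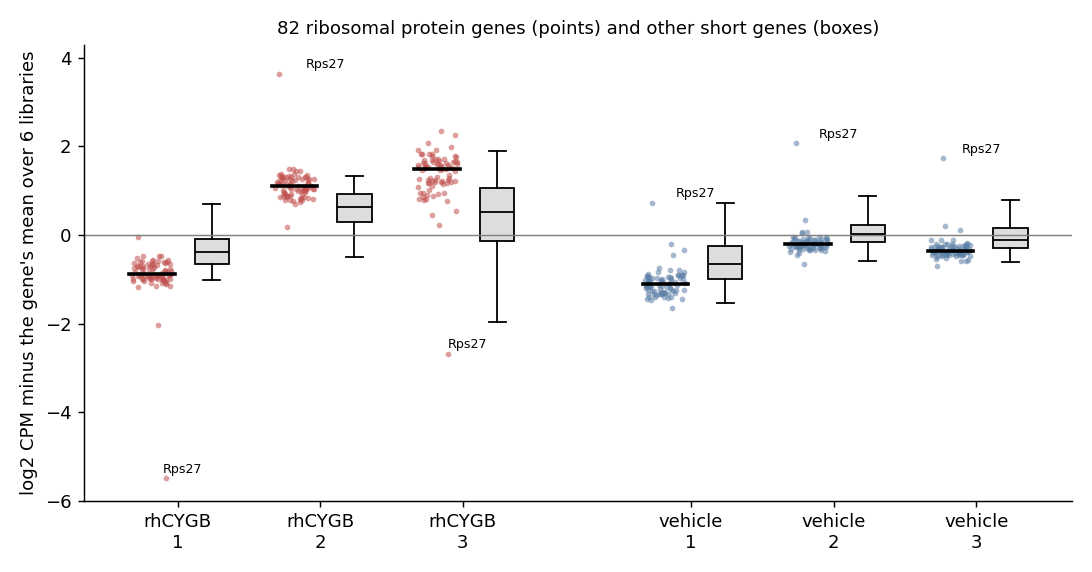
Log2 CPM of each gene minus its mean over the 6 libraries (y axis), by library (x axis). Points are the 82 ribosomal protein genes with a black line at their median, and grey boxes give the quartiles (whiskers, 5th to 95th percentile) of 2273 other genes of 448 to 1419 bases. Members sit at a median of 1.10 and 1.50 in rhCYGB replicates 2 and 3, and at -0.88 in rhCYGB replicate 1, near vehicle replicate 1.

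No member passed the test of rhCYGB against vehicle. With edgeR's quasi-likelihood test and Benjamini-Hochberg adjustment, 0 of the 82 members and 0 of all 14415 genes (0%) had an adjusted p under 0.05, and the lowest adjusted p of any member was 0.523. At an unadjusted p under 0.05, 33 members were higher and 0 lower, against 873 higher (6.06%) and 297 lower (2.06%) of all genes. DESeq2, which gave an adjusted p to 1558 genes, called 63 higher (4.04%) and 2 lower (0.128%), and among them 1 member, Rpl36. The fitted log2 fold change was above 0 for 82 of 82 members, against 46.8% of all genes, with a median of 1.40 (range 0.25 to 2.26), against a median of -0.06 over all genes. The groups' CPM did not overlap for 1 member, Rpl7l1, which was higher, against 6.02% of all genes higher and 7.38% lower. For the other 81 members the groups overlapped. With rhCYGB replicate 2 or 3 left out, 0 members were higher at an unadjusted p under 0.05, against 2% and 1.24% of all genes, and with vehicle replicate 1, 2 or 3 left out, 0, 1 and 0 were, against 1.16%, 2.42% and 1.84%. Rps27 was lower at that threshold without rhCYGB replicate 2.

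Levels below, and the order of livers read from them, are in TPM unless CPM is named. Fold changes are on the TMM scale, and these scales differ. On log2(TPM + 1), fitted with limma, the median over all genes was -0.51 and the members' median 0.40, with 74 of 82 above 0, against 12.8% of all genes. The members' median was thus 0.91 above that of all genes in TPM and 1.46 above it on the TMM scale. A fold change can therefore exceed the ratio of the TPM values printed beside it, and a gene can lie above 0 on 1 scale and below 0 on the other. The 8 members below 0 on log2(TPM + 1) were Rps27, Rpl7l1, Rps4l and Rpl26, described below, and Rpl7, Rps12, Rps16 and Rpl7a, which lay between -0.06 and -0.02.

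Among the 60S proteins, Rpl36 (chr17:56613395-56614246, mm10) had the largest fold change. Its level was 567, 1771 and 2724 TPM in the rhCYGB livers, against 526, 829 and 724 TPM in the vehicle livers. The log2 fold change was 2.26 (SE 0.82) at an unadjusted p of 0.0266 and an adjusted p of 0.523 by edgeR's quasi-likelihood test. rhCYGB replicates 2 and 3 were above every vehicle liver and rhCYGB replicate 1 within the vehicle range. Rpl13a, a 60S protein that mammalian cells can release from the ribosome to silence inflammatory mRNAs, had 804, 1739 and 2521 TPM in the rhCYGB livers, against 906, 986 and 1001 TPM in the vehicle livers, a log2 fold change of 1.78 (SE 0.69). For Rpl13a, rhCYGB replicate 1 was the lowest of the 6 livers. Rpl12, which forms the base of the stalk where elongation factors bind, had 1148, 2393 and 2917 TPM in the rhCYGB livers, against 1374, 1291 and 1396 TPM in the vehicle livers, and its log2 fold change was 1.63 (SE 0.63).

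Among the 40S proteins, Rps19, needed for 18S rRNA maturation and mutated in the human anaemia of Diamond and Blackfan, had 485, 1459 and 1834 TPM in the rhCYGB livers, against 507, 706 and 715 TPM in the vehicle livers. Its log2 fold change was 1.94 (SE 0.75) at an adjusted p of 0.523 by edgeR. Rps14, which sits beside the mRNA channel, had 775, 1528 and 1754 TPM in the rhCYGB livers, against 679, 851 and 891 TPM in the vehicle livers, at 1.66 (SE 0.62). Rps21, a small protein of the 40S body, had 491, 1120.2 and 1075 TPM in the rhCYGB livers, against 495, 659 and 584 TPM in the vehicle livers, at 1.54 (SE 0.62). In all 3, rhCYGB replicates 2 and 3 stood above the other 4 livers. The 50 large-subunit members tested had a median log2 fold change of 1.47, with 20 at an unadjusted p under 0.05. The 32 small-subunit members had a median of 1.34, with 13. All of these were higher, against 6.06% of all genes higher at that threshold.

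The P stalk proteins Rplp0, Rplp1 and Rplp2 form the flexible arm that recruits and activates the elongation factors. Rplp1 was the most abundant member by mean TPM, with 1558, 3927 and 4737 TPM in the rhCYGB livers, against 1679, 2029 and 1924 TPM in the vehicle livers, and a log2 fold change of 1.82 (SE 0.69). Rplp2 had 688, 1636 and 1902 TPM in the rhCYGB livers, against 739, 1044 and 963 TPM in the vehicle livers, at 1.55 (SE 0.67). Rplp0, the anchor of the stalk and a common reference gene in PCR assays, had 886, 1604 and 2039.6 TPM in the rhCYGB livers, against 1057, 1043 and 1053 TPM in the vehicle livers, at 1.47 (SE 0.61). For Rplp0 in TPM, the rhCYGB livers lay on both sides of the narrow range of the vehicle livers. In CPM rhCYGB replicate 1 lay within the vehicle range, at 558, against 512, 800 and 716 in vehicle replicates 1 to 3. Rplp1 and Rplp0 had an unadjusted p of 0.0332 and 0.0455, and Rplp2 one of 0.053.

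Besides Rplp1 and Rpl12, the latter described above at 1.63, the members of highest mean TPM had log2 fold changes of 1.05 to 1.50. Rpl41, the shortest ribosomal protein, had 1522, 2893 and 2671 TPM in the rhCYGB livers, against 1656, 1831 and 1927 TPM in the vehicle livers, a log2 fold change of 1.29 (SE 0.57). Rps2, at the mRNA entry of the 40S subunit, had 1543, 2229.6 and 2531 TPM in the rhCYGB livers, against 1652, 1731 and 1773 TPM in the vehicle livers, at 1.18 (SE 0.54). Rpl10, an X-linked protein added late in 60S assembly, had 1352, 2081 and 2256 TPM in the rhCYGB livers, against 1567, 1815 and 1703 TPM in the vehicle livers, at 1.05 (SE 0.55). Rps9, a 40S protein that binds rRNA early in assembly, had 1032, 2368 and 2508 TPM in the rhCYGB livers, against 1226, 1384 and 1399 TPM in the vehicle livers, at 1.50 (SE 0.64). For each, rhCYGB replicate 1 was the lowest liver and rhCYGB replicates 2 and 3 the highest.

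Rpl5 and Rpl11 bind the 5S rRNA and, when ribosome assembly fails, the p53 inhibitor Mdm2. Rpl11 had 854, 1995 and 2275 TPM in the rhCYGB livers, against 831, 1094 and 1096 TPM in the vehicle livers, at 1.70 (SE 0.67). Rpl5 had 329, 421 and 469 TPM in the rhCYGB livers, against 335, 355 and 383 TPM in the vehicle livers, at 1.04 (SE 0.49). The difference between the genes was not tested. Rps6, phosphorylated by S6 kinase downstream of mTORC1, had 448, 615 and 638 TPM in the rhCYGB livers, against 497, 535 and 576 TPM in the vehicle livers, at 0.94 (SE 0.50). Its rhCYGB replicates 2 and 3 exceeded the highest vehicle liver by less than the vehicle livers' own range in TPM. Rps27a, made as a fusion with ubiquitin, had 778, 1031 and 949.8 TPM in the rhCYGB livers, against 813, 887 and 886 TPM in the vehicle livers, at 0.93 (SE 0.47). Rps4x, an X-linked 40S protein, had 734, 1136 and 1200.0 TPM in the rhCYGB livers, against 788, 879 and 922 TPM in the vehicle livers, at 1.13 (SE 0.54).

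Ribosomal protein paralogs, extra genes that encode variants of 1 protein and may replace it in some ribosomes, had fold changes in the lower part of the family's range. Members that are not paralogs lay there too, such as Rpl7 at 0.76 and Rps12 at 0.78. Of the 8 in the table, 5 passed the filter, with a median log2 fold change of 0.88 and none at an unadjusted p under 0.05. Over all genes 6.06% were higher and 2.06% lower at that threshold, and 5 genes are too few to set against those shares. On log2(TPM + 1) their median was 0.02. Rps27l, a p53 target, had 542, 788 and 589 TPM in the rhCYGB livers, against 465, 574 and 594 TPM in the vehicle livers, at 1.05 (SE 0.47). Rpl22l1, the variant of Rpl22, had 259.7, 353 and 263 TPM in the rhCYGB livers, against 241, 268 and 288 TPM in the vehicle livers, at 0.95 (SE 0.43). Rpl36al, the variant of Rpl36a, had 422, 694 and 507 TPM in the rhCYGB livers, against 463, 589 and 519 TPM in the vehicle livers, at 0.88 (SE 0.49). In these 3, rhCYGB replicate 2 stood highest, and rhCYGB replicate 3 was close to the vehicle livers in TPM. Rpl7l1 had 59.7, 34.7 and 30.9 TPM in the rhCYGB livers, against 69.7, 48.9 and 52.4 TPM in the vehicle livers, with rhCYGB replicates 2 and 3 below every vehicle liver in TPM. Its log2 fold change was 0.25 (SE 0.22) on the TMM scale and -0.48 on log2(TPM + 1). Rps4l, an autosomal copy of Rps4x, had 45.3, 74.5 and 51.1 TPM in the rhCYGB livers, against 84.2, 85.4 and 51.2 TPM in the vehicle livers, at 0.49 (SE 0.47) on the TMM scale and -0.36 on log2(TPM + 1).

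Of the 3 tested members of lowest mean TPM, Rpl34 and Rpl26 are described below with the rows of their copies. Rpl32l, a row on chromosome 10 inside the gene Map7, had 0.109, 1.06 and 1.41 TPM in the rhCYGB livers, against 0.438, 0.348 and 0.781 TPM in the vehicle livers, at 1.72 (SE 1.03). Rps4l likewise lies inside a longer gene, Tmtc1, and reads of overlapping genes may be shared between their rows. Rps15a and Rps20, singled out after their values were seen, are listed with transcripts of 5134 and 3446 bases. Rps15a had 57, 136 and 141 TPM in the rhCYGB livers, against 66, 81.3 and 77.3 TPM in the vehicle livers, at 1.51 (SE 0.64). Rps20 had 117, 289.8 and 310.1 TPM in the rhCYGB livers, against 129.6, 161 and 160.5 TPM in the vehicle livers, at 1.61 (SE 0.66). TPM is divided by those lengths, and the fold changes are not.

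**Figure D3:**
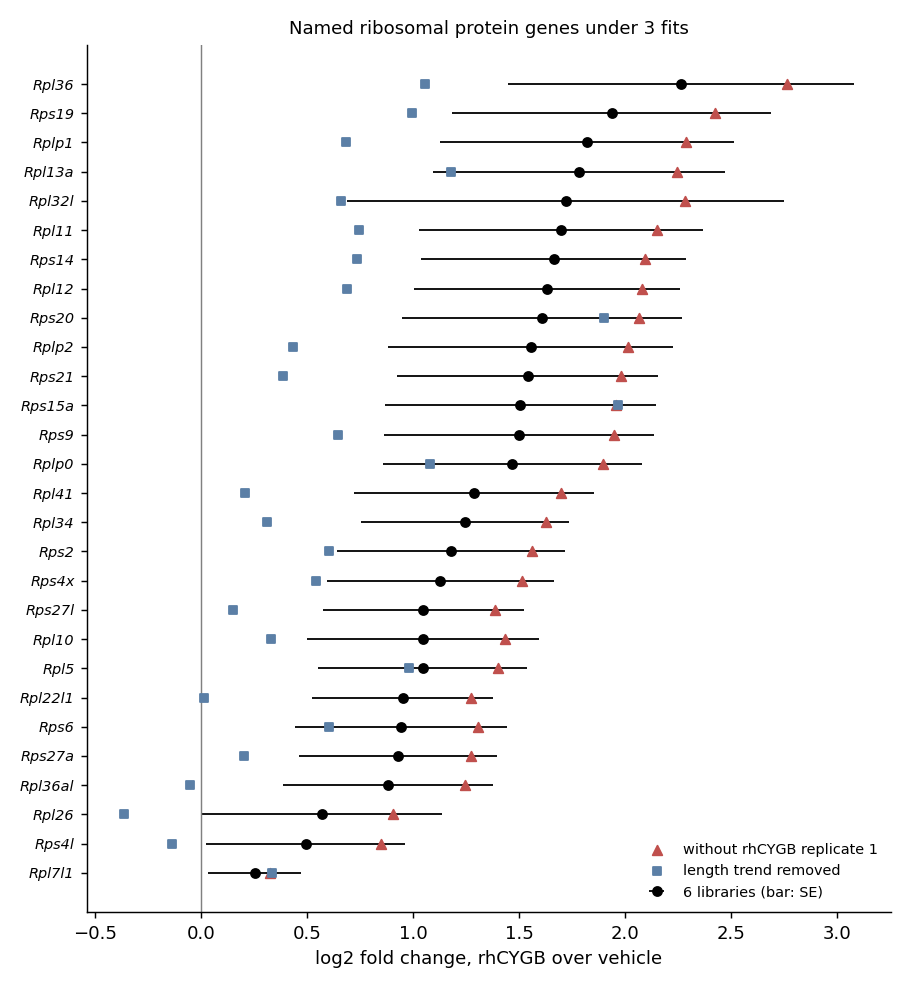
Log2 fold change of rhCYGB over vehicle (x axis) for members described in the text other than Rps27 (y axis). Black points with SE bars are the fit on 6 libraries, red triangles the fit without rhCYGB replicate 1, and blue squares the fit with each library's length trend removed. Rpl36 stands highest at 2.26. Removing the length trend takes Rpl36al, Rpl26 and Rps4l below 0.

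Rps27, Rpl34 and Rpl26 shared their loci with the rows of near-identical copies. In the deposited transcript table a copy's transcript was listed over at least 80% of the locus of each, on the same chromosome, while RefSeq places the copy on another chromosome. Rpl30 shared its locus with the row Gm12191 in the same way, which carried few counts. How the reads of such a locus were divided between its rows rests on the assembler, so the levels of the separate rows are uncertain.

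Rps27, a zinc-finger protein of the 40S subunit, differed from the other members in its own row. Its level was 3.69, 1712 and 11.1 TPM in the rhCYGB livers, against 595, 949.8 and 848 TPM in the vehicle livers. It was low in rhCYGB replicates 1 and 3 and abundant in the other 4 livers. The row Rps27rt, named for a retrogene, had 601, 10.4 and 2262 TPM in the rhCYGB livers, against 3.86, 4.91 and 6.84 TPM in the vehicle livers, and was abundant only in the livers where Rps27 was low. The table lists Rps27 at chr3:90212667-90213648 and Rps27rt at chr3:90212667-90213647 (mm10). GENCODE vM21 (GRCm38) has Rps27 at chr3:90212671-90213651 and Rps27rt at chr9:114982366-114982739, both on the minus strand, with coding sequences that were the same over all 255 bases. The line shows that shared sequence from the start to the stop codon, both in capitals.
Rps27 and Rps27rt: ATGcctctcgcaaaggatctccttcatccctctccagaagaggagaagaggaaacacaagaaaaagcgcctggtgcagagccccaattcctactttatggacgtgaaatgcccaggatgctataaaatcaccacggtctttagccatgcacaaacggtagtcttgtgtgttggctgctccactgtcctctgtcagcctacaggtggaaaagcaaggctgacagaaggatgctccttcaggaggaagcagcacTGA
The transcripts, 345 and 374 bases long, shared an unbroken run of 341 bases. Rps27rt held 99.4%, 0.603% and 99.5% of the TPM of the pair in rhCYGB replicates 1 to 3, against 0.645%, 0.514% and 0.8% in vehicle replicates 1 to 3. Summed, the pair had 604, 1723 and 2273 TPM in the rhCYGB livers and 599, 955 and 854 TPM in the vehicle livers, with rhCYGB replicates 2 and 3 the highest of the 6 livers. The log2 fold change of the sum was 1.88 (SE 0.75), against 0.47 (SE 1.73) for Rps27 and 8.49 (SE 1.94) for Rps27rt alone. For Rps27 alone the value was -4.09 on log2(TPM + 1). Neither the sum nor the separate rows passed edgeR's test, with an adjusted p of 0.523 for Rps27rt. DESeq2 called the row Rps27rt, at an adjusted p of 5.58e-05.

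Rpl34, a 60S protein, stood under its copy in every library. Its own row had 34.9, 55.8 and 53.4 TPM in the rhCYGB livers, against 34.3, 37.7 and 37.2 TPM in the vehicle livers. The row Rpl34-ps1, described as a pseudogene and listed at chr3:130726837-130730329, inside Rpl34 at chr3:130726827-130730398 (mm10), had 617, 1427 and 1456 TPM in the rhCYGB livers, against 554, 837 and 796 TPM in the vehicle livers. The copy held 94.2% to 96.5% of the TPM of the pair over the 6 livers. Its coding sequence differed from that of Rpl34 at 2 of 354 bases, T132C and C318G, counted from the A of the start codon with the base of Rpl34 first. The stretches around each, from GENCODE vM21 (chr3:130726839-130730398, - strand, for Rpl34 and chr6:71124610-71124963, + strand, for Rpl34-ps1, GRCm38), are shown with the differing base in capitals.
Rpl34, bases 112 to 152: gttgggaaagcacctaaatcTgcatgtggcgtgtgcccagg
Rpl34-ps1, bases 112 to 152: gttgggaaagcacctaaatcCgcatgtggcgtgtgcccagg
Rpl34, bases 298 to 338: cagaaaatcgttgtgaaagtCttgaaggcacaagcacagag
Rpl34-ps1, bases 298 to 338: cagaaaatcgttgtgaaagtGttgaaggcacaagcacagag
Summed, the pair had 651, 1483 and 1509 TPM in the rhCYGB livers and 589, 875 and 833 TPM in the vehicle livers, and a log2 fold change of 1.57 (SE 0.64), against 1.25 (SE 0.49) for Rpl34 alone.

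Rpl26, a 60S protein that also binds p53 mRNA in human cells, was nearly absent from its own row. It had 1.28, 1.92 and 1.19 TPM in the rhCYGB livers, against 1.93, 1.3 and 2.05 TPM in the vehicle livers, far under the members' median of 869 TPM, at a log2 fold change of 0.57 (SE 0.57) on the TMM scale and -0.16 on log2(TPM + 1). The row Gm15772, a predicted gene that RefSeq places on chromosome 5, was listed at chr11:68901589-68904534, inside Rpl26 at chr11:68901566-68904534 (mm10). Gm15772 had 923, 1914 and 1654 TPM in the rhCYGB livers, against 921, 1171 and 1233 TPM in the vehicle livers, at 1.32 (SE 0.59). The GENCODE vM21 transcript of Gm15772 and the coding sequence of Rpl26, both 438 bases long, differed at 2 bases. Summed, the pair had 924, 1916 and 1655 TPM in the rhCYGB livers and 923, 1172 and 1235 TPM in the vehicle livers, with a log2 fold change of 1.32 (SE 0.59). With all 12 rows of ribosomal protein copies added, the members' share of counts averaged 4.3 ± 1.91% with rhCYGB and 2.69 ± 0.453% with vehicle (SD, n = 3 each). Gm15772 and the sums were chosen after their values were seen.

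**Figure D4:**
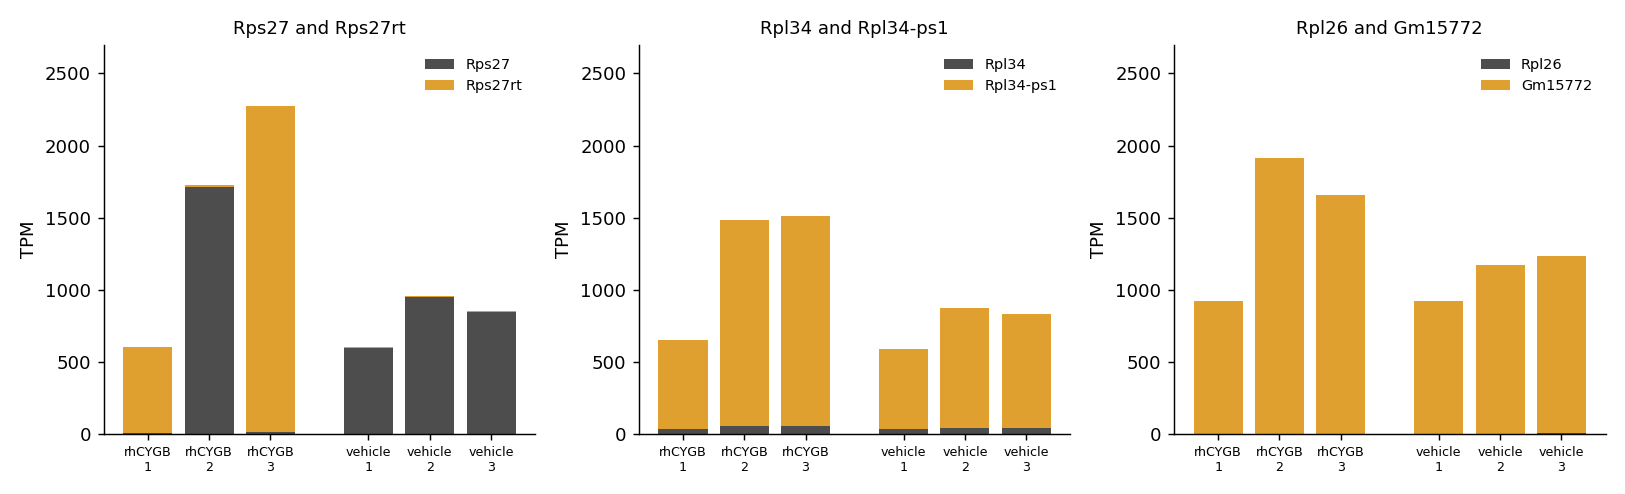
TPM (y axis) in each liver (x axis) of Rps27 stacked with the row Rps27rt (left), Rpl34 with Rpl34-ps1 (middle) and Rpl26 with Gm15772 (right). Rps27rt takes 601 and 2262 TPM in rhCYGB replicates 1 and 3, the copies take nearly all of the other pairs, and the stacks of rhCYGB replicates 2 and 3 are the tallest of each panel.

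At the level of transcripts, 15 members had more than 1 listed. Of 109 member transcripts, 105 passed the filter, and 0 had an adjusted p under 0.05 in edgeR's quasi-likelihood test, against 0% of 19664 transcripts. At an unadjusted p under 0.05, 2 were higher, against 2.85% of all transcripts higher. Fold changes were above 0 for 103 of the 105, with a median of 1.23, against 44.7% of all transcripts and a median of -0.11. Rps24, whose last exons are spliced in several ways, had a main form (NM_207634) of 738, 1721 and 1847 TPM in the rhCYGB livers and 728, 974 and 1050.4 TPM in the vehicle livers, at 1.45 (SE 0.67). Its form NM_011297 had 44.6, 64.2 and 31.3 TPM in the rhCYGB livers and 45.5, 62.5 and 46 TPM in the vehicle livers, at 0.53 (SE 0.47), with rhCYGB replicate 3 the lowest liver. Rpl22 and Rpl31 each had 1 transcript with a negative fold change, both low. The form NR_102292 of Rpl22 had 0, 0.398 and 0 TPM in the rhCYGB livers and 0, 9.98 and 10.9 TPM in the vehicle livers. Isoform levels rest on the assembler's division of shared reads and are less certain than gene totals.

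Short genes that are not ribosomal also had positive fold changes, but smaller ones. The members' listed lengths ran from 313 to 5134 bases, and the 12089 other genes tested in that range had a median log2 fold change of 0.01. Lengths in the members' 10th to 90th percentile, 448 to 1419 bases, gave 2273 other genes with a median of 0.53, 76.0% of them above 0. The members' median exceeded that of the longer range by 1.39 and that of the narrower range by 0.87 on the log2 scale. Like the members, these 2273 genes stood low in rhCYGB replicate 1, at a median deviation of -0.39 log2 CPM, and high in rhCYGB replicates 2 and 3, at 0.63 and 0.52, against -0.66, 0.01 and -0.11 in vehicle replicates 1 to 3.

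In each class of length the members' median lay above that of the other genes. Up to 600 bases, 34 members had a median log2 fold change of 1.45 and 296 other genes one of 0.98. From 600 to 900 bases, 23 members had 1.50 and 571 others 0.69. From 900 to 1200 bases, 11 members had 1.18 and 790 others 0.51. The median of other genes was lower in each longer class, down to -0.34 above 4500 bases. The only members over 3000 bases were Rps20 and Rps15a, at 1.61 and 1.51. The listed length need not be that of the sequenced molecule. When each library's trend on length, fitted without the members, was removed, the members' median was 0.59 with 77 of 82 above 0, against 0.02 and 51.2% over all genes. 0 members and 0 genes then passed by edgeR, and 8 members had an unadjusted p under 0.05, all higher, against 7.44% of all genes higher. With GC content added to the trend, the members' median was 0.75 over 81 members, against 0.11. What part the length trend had in the members' difference was not tested.

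**Figure D5:**
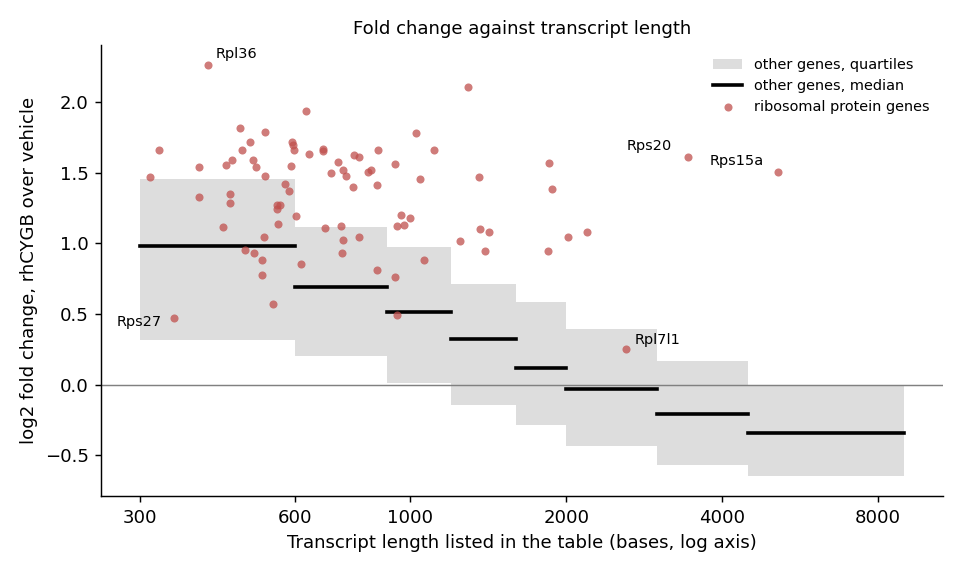
Log2 fold change of rhCYGB over vehicle (y axis) against listed transcript length in bases (x axis, log scale). Red points are the 82 ribosomal protein genes. Black lines and grey bands are the median and quartiles of all other genes tested in 8 classes of length, the first of which holds all genes up to 600 bases and the last all above 4500. The members' median lies above that of the other genes in each class, at 1.45 against 0.98 in the shortest.

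Among themselves the members had a lower quartile of the log2 fold change of 1.08 and an upper one of 1.59, and 67 of 82 exceeded 1. Across 80 members with a GC value, Rps27 left out, Spearman's rho between the log2 fold change and the GC content of the transcript was 0.35. With log2 length it was -0.21 over 81 members. The members also differed between the 2 rhCYGB livers in which they were high. Rpl36 and Rpl13a were higher in rhCYGB replicate 3 than in rhCYGB replicate 2, by 0.85 and 0.76 log2 CPM. The paralogs Rpl36al, Rpl22l1 and Rps27l were lower in rhCYGB replicate 3, with differences of -0.23, -0.20 and -0.20, and the paralog Rpl7l1 was not, at 0.056. Other members were lower there too, such as Rpl26 at -0.45 and Rpl39 at -0.19. Over 80 members Spearman's rho of that difference with GC content was 0.36, and over 81 members its rho with mean log2 CPM was 0.40. These describe genes that share the same 6 libraries, and genes are not replicates. Members with CTTTC near the start had a median log2 fold change of 1.53 (16 tested, range 0.47 to 1.78). Members with a window but without it had 1.25 (45 tested, range 0.25 to 1.94), so the ranges overlapped. The 21 tested members with no window matched had 1.41. This is a description with no test.

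The result for the members depended on rhCYGB replicate 1. Without it, 75 of 82 members had an adjusted p under 0.05 by edgeR's quasi-likelihood test, all higher, with a median of 1.83, but so did 3391 genes in all, 12.7% of those tested being higher and 10.5% lower. The 7 members not called were Rpl26, Rpl7, Rps12, Rps27, Rps4l, Rpl7l1 and Rpl32l. Rpl36 then had a log2 fold change of 2.76 and Rplp1 one of 2.29, each at an adjusted p of 0.021. Nothing in the labels sets that mouse apart, and its values stand in every result above. Limma-voom with library weights, which gave rhCYGB replicate 1 the lowest weight (0.173), called 77 of 82 members, all higher, against 16.1% of all genes higher and 13.9% lower. Voom without weights called 0 members and 0 genes. With rhCYGB replicate 1 as the 1 library of its group, the members' median was -0.36. With each library's length slope as a covariate in edgeR the median was 0.20, and 0 members had an unadjusted p under 0.05, against 1.96% of all genes higher.

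The ribosomal proteins under other symbols also had positive fold changes. Fau, a ubiquitin-like fusion with Rps30, had 591, 1642 and 2495 TPM in the rhCYGB livers, against 553, 907 and 857 TPM in the vehicle livers, at 1.98 (SE 0.79). Rpsa, a 40S protein also known as a laminin receptor, had 652, 1202 and 1677 TPM in the rhCYGB livers, against 810.2, 744 and 773 TPM in the vehicle livers, at 1.57 (SE 0.63). Rack1, a signalling scaffold on the 40S head, had 652, 751 and 824 TPM in the rhCYGB livers, against 781, 671 and 698 TPM in the vehicle livers, at 0.92 (SE 0.45). None of the 3 had an adjusted p under 0.05 by edgeR.

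Other genes of translation, in lists chosen with earlier results of these data known, had lower median fold changes than the members, and 0 genes of any list had an adjusted p under 0.05 by edgeR. At an unadjusted p under 0.05 in that test, 6.06% of all genes were higher and 2.06% lower. Those are the shares to set beside the counts of each list below. Of 21 genes of the nascent chain, of elongation and with TOP mRNAs, 18 were above 0, with a median log2 fold change of 0.67 on the TMM scale and -0.05 on log2(TPM + 1), and 2 at an unadjusted p under 0.05. Eef1a1, the factor that brings aminoacyl-tRNA, had 4057, 3217 and 3467 TPM in the rhCYGB livers, against 4642, 3863 and 4101 TPM in the vehicle livers, at 0.56 (SE 0.41) on the TMM scale and -0.23 on log2(TPM + 1). Tpt1, a TOP mRNA, had 2369, 2868 and 2845 TPM in the rhCYGB livers, against 2401, 2733 and 2968 TPM in the vehicle livers, at 0.82 (SE 0.49) on the TMM scale and -0.00 on log2(TPM + 1). In TPM, Eef1a1 was lower in rhCYGB replicates 2 and 3 than in every vehicle liver, while Rplp1, whose stalk binds it, was higher. In CPM, Eef1a1 was higher there too, at 5362 and 6754, against 2957, 3899 and 3667 in vehicle replicates 1 to 3. Initiation factors had a median of 0.56 with 22 of 26 above 0 on the TMM scale, and a median of -0.22 on log2(TPM + 1). Eif1, which guards start codon choice, had 386, 425 and 529 TPM with rhCYGB and 442, 449 and 410.3 TPM with vehicle, at 0.90 (SE 0.47). Eif4a1, the helicase of initiation, had 388, 370.3 and 421 TPM with rhCYGB and 544, 369 and 463 TPM with vehicle, at 0.64 (SE 0.40) on the TMM scale and -0.21 on log2(TPM + 1).

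Genes that build ribosomes had a median log2 fold change of 0.58 on the TMM scale and -0.24 on log2(TPM + 1), with 36 of 43 above 0 on the first and 3 at an unadjusted p under 0.05. Ncl, the nucleolar protein nucleolin, had 38.2, 38.4 and 62.6 TPM with rhCYGB and 49.2, 35.4 and 44.2 TPM with vehicle, at 1.03 (SE 0.49). Rrp1, a nucleolar protein of rRNA processing, had 71.8, 73.5 and 73.5 TPM with rhCYGB and 77.8, 79.1 and 84.4 TPM with vehicle, at 0.67 (SE 0.38) on the TMM scale and -0.14 on log2(TPM + 1). Genes of mTORC1 and translation control had a median of 0.05 on the TMM scale, -0.09 with upper-quartile factors and -0.63 on log2(TPM + 1), with 12 of 22 above 0 on the first. In that list Eif4ebp1, the repressor of cap binding that mTORC1 switches off, had 86.7, 157 and 234 TPM with rhCYGB and 68.2, 99.2 and 93.6 TPM with vehicle, at 1.80 (SE 0.65) and an unadjusted p of 0.0271. Larp1, which binds the TOP tract, had 27.4, 7.48 and 11.5 TPM with rhCYGB and 36.1, 17.5 and 19.9 TPM with vehicle, at -0.02 (SE 0.30) with TMM factors and 0.01 with DESeq2's size factors.

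Proteins of the mitochondrial ribosome had a median log2 fold change of 0.79 on the TMM scale and -0.04 on log2(TPM + 1), with 77 of 78 above 0 on the first and 16 at an unadjusted p under 0.05. Mrpl12, of its stalk, had 276, 379 and 419 TPM with rhCYGB and 264, 257 and 265 TPM with vehicle, at 1.34 (SE 0.48). Mrpl30 had 139, 257 and 259.6 TPM with rhCYGB and 133, 159 and 172 TPM with vehicle, at 1.40 (SE 0.55). Nuclear genes of the respiratory chain, also short, had a median of 1.22 on the TMM scale and 0.36 on log2(TPM + 1), with 76 of 76 above 0 on the first and 47 at an unadjusted p under 0.05, a larger count than the members' 33 of 82. Atp5b, the catalytic subunit of ATP synthase, had 1484, 1299 and 1473 TPM with rhCYGB and 1362, 1084 and 1284 TPM with vehicle, at 1.01 (SE 0.42). Atp5a1 had 772, 364 and 368 TPM with rhCYGB and 774, 487 and 574 TPM with vehicle, at 0.39 (SE 0.29) on the TMM scale and -0.35 on log2(TPM + 1). Proteasome genes had a median of 0.52 on the TMM scale and -0.24 on log2(TPM + 1), with 40 of 49 above 0 on the first, and Psme1, of its activator, had 282, 328 and 384 TPM with rhCYGB and 267, 300.1 and 334 TPM with vehicle, at 0.99 (SE 0.47). Psmd8, of its lid, had 281, 317 and 266 TPM with rhCYGB and 277, 292 and 297 TPM with vehicle, at 0.80 (SE 0.41) on the TMM scale and -0.01 on log2(TPM + 1). The medians with the length trend removed were 0.35 for the mitochondrial ribosome, 0.44 for the respiratory chain, 0.17 for the proteasome, 0.56 for ribosome assembly, 0.52 for initiation factors, 0.41 for elongation and TOP genes, 0.34 for mTORC1 and translation control and 0.94 for the 8 hepatocyte markers described next. The cytosolic members' median of 0.59 was near those of ribosome assembly and initiation factors and under that of the hepatocyte markers.

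Summed levels of cell type markers differed between the libraries. The sums depend on the scale, and on log2(TPM + 1) the median log2 fold change over all genes was -0.51. The 8 hepatocyte markers, none at 0, summed to 100783 to 116139 TPM with rhCYGB and 84223 to 97198 TPM with vehicle. All 8 were detected in every library, as the liver label states. In CPM the hepatocyte sums overlapped, at 88770, 189029 and 195851 with rhCYGB and 57923, 99465 and 87204 with vehicle. The 6 bile duct markers, none at 0, summed to 875, 275 and 120.4 TPM in rhCYGB replicates 1 to 3 and 2040.0, 1168 and 1325 TPM in vehicle replicates 1 to 3. All rhCYGB libraries lay below every vehicle library, also rhCYGB replicate 1, where the members' share of counts was the lowest. In CPM the bile duct sums were 589, 374 and 195 with rhCYGB and 1056, 949 and 956 with vehicle. Of all single genes, 7.38% were lower without overlap in CPM. On the TMM scale 2 of the 6 bile duct markers had a fold change above 0 and 4 below. The 6 stellate cell and myofibroblast markers, none at 0, summed to 140.0, 81.8 and 17.8 TPM with rhCYGB and 304, 201 and 193 TPM with vehicle. The 5 markers of dividing cells, none at 0, summed to 64, 42.1 and 5.92 TPM with rhCYGB and 93.4, 56.1 and 98.4 TPM with vehicle. Macrophage and monocyte markers (6) summed to 682 to 1473 TPM with rhCYGB and 1933 to 3044 TPM with vehicle. In CPM these sums overlapped, at 941, 1652 and 969 with rhCYGB and 1041, 1399 and 1887 with vehicle. Endothelial markers (5) summed to 21.3 to 93.6 TPM with rhCYGB and 60.1 to 109 TPM with vehicle, and erythroid markers (6) to 556 to 1138 and 593 to 2796 TPM. None of these lists had a marker at 0. Neutrophil markers (4, Ly6g at 0) summed to 74.7 to 139 TPM with rhCYGB and 133 to 231 TPM with vehicle, and the 6 lymphocyte markers, none at 0, stayed under 5 TPM in every library. What part these differences had in the members' levels was not tested.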

How the data were processed

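Liver mRNA from 6 mice was sequenced from both ends of its fragments with a stranded poly(A) kit, per the labels' protocols. The authors deposited a table of genes and a table of transcripts, each with estimated counts and FPKM. FastQC 0.11.7, HISAT2 2.1.0, StringTie 1.3.4d and the build mm10 are named in the submitters' processing notes. Which annotation release and strand setting were used is not given in the sources used here, and genes that overlap, on either strand, are uncertain. The deposited expected (estimated) counts equal FPKM times transcript length times 1 constant per library, so they are coverage estimates, not tallies of reads. Precision here comes from the spread between mice.

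FPKM was rescaled to TPM. Counts, already whole numbers, were tested in R 4.3.3 with edgeR 4.0.16 (filterByExpr, TMM, robust quasi-likelihood F test, Benjamini-Hochberg adjustment over 14415 genes or 19664 transcripts, threshold 0.05). CPM uses TMM-scaled totals, and SE is the absolute log2 fold change divided by the root of the F statistic. The test was tried on simulated data with 200 genes changed. Alternatives used limma 3.58.1 and DESeq2 1.42.0, other scalings and filters, a loess (span 0.5) on length, an adjusted p of 0.1, and each library left out. GC content came from GENCODE vM21 transcripts, for 84 of 85 members. Columns left unused for lack of a sample numbered 0.

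A few items are not reported here. The members, gene lists and tests were chosen with earlier results of these data known. Named members are the 10 of smallest p, the 6 of highest and 3 of lowest mean TPM, the P stalk, Rps6, Rpl5, Rpl11, Rps27a, Rps4x, Rps19 and tested paralogs, and from each other list the 2 of highest mean CPM. Rps27, Rps15a, Rps20, the members listed without a call or below 0 in TPM, the copy rows and the transcripts of Rps24, Rpl22 and Rpl31 were chosen after their values were seen. No test was run on any score or list of members.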

Additional observations from a re-analysis of the deposited data

How the results depend on the processing

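No gene and no member was called by edgeR's quasi-likelihood test with DESeq2 size factors, upper-quartile factors, TMM factors computed without the members, another filter on low counts, a threshold of 0.1 or a length correction, nor by limma on either log2(TPM) setting. DESeq2's test called 65 genes and 1 member, and limma-voom with quality weights 4323 genes and 77 members. Leaving out 1 library gave 0 to 3391 genes, 0 to 75 members and 0 to 10 member transcripts, the upper end each time without rhCYGB replicate 1, where 4.69% of all transcripts were called. At an unadjusted p under 0.05 in either direction, the 33 members (8.12% of all genes) became 69 by DESeq2 (11.1% of all genes), 79 and 1 by limma-voom with and without quality weights (46% and 6.22%), and 8 with upper-quartile factors (6.49%). They became 8 with the length trend removed (10.2%), 14 with the length and GC trends removed (12.7%), 0 with the length slope as a covariate (3.98%), and 0 on log2(TPM + 0.1) and log2(TPM + 1) (8.1% and 8.32%). With rhCYGB replicate 1 as the only rhCYGB library there was 1 (2.1%). With 1 library left out there were 0 to 79, the 79 without rhCYGB replicate 1, where 42% of all genes passed. The members' median log2 fold change of 1.40 became -0.36 with that 1 rhCYGB library, 0.20 with the slope covariate and 0.40 on log2(TPM + 0.1) and on log2(TPM + 1), where the median over all genes was -0.75 and -0.51. With upper-quartile factors the median over all genes was -0.18.

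Some named genes lay on the other side of 0 under some settings. With the length and GC trends removed, the slope covariate, the length trend removed, log2(TPM + 0.1) and log2(TPM + 1), in that order, Rpl26 had -0.075, -0.11, -0.36, -0.25 and -0.16, Rps4l -0.24, -0.30, -0.14, -0.36 and -0.36, and Rps27 -0.47, -4.48, -0.99, -4.23 and -4.09. Rps27 also had -3.10 by limma-voom without weights and -5.11 to 1.05 with 1 library left out, the lowest without rhCYGB replicate 2. Rpl32l had -0.51 with the slope covariate, and Rpl36al -0.010 there and -0.053 with the length trend removed. On log2(TPM + 0.1) and log2(TPM + 1), Rpl7l1 had -0.49 and -0.48, Atp5a1 -0.35 and -0.35, Eef1a1 -0.23 and -0.23, Eif4a1 -0.21 and -0.21, Psmd8 -0.0054 and -0.0054, Rrp1 -0.14 and -0.14, and Tpt1 -0.0036 and -0.0036. Larp1, below 0 with TMM factors, had 0.00884 with DESeq2 size factors, 0.000162 by DESeq2's test, 0.33, 0.21 and 0.38 with the length and GC trends removed, the slope covariate and the length trend removed, and -0.17 to 0.21 with 1 library left out. The cause of these changes was not tested. Of the other values of named genes, named members gave 49 and other named genes 35 that passed an adjusted p of 0.05, all by DESeq2, with quality weights or without rhCYGB replicate 1.

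The settings with 1 rhCYGB library, with GC content and with copies summed were chosen after seeing the data. No paired analysis was possible because the replicate numbers follow the order of deposition and pair no mice across groups. With 3 mice a group and estimated counts in place of read tallies, no limit for a count of 0 is given, and differences smaller than the spread of the rhCYGB livers could not be told from it.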

Other observations

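RNA polymerases I and III make the ribosomal RNAs. Their subunits were measured in the same livers, in 1 list with transcription factors and regulators such as Ubtf, Maf1 and Myc. Of the 35 genes of this list, 27 had a log2 fold change above 0 on the TMM scale, with a median of 0.40. The median on log2(TPM + 1) was -0.33. None had an adjusted p under 0.05 by edgeR, against 0% of all genes. Polr1d, shared by both enzymes, had 107, 126 and 134 TPM in the rhCYGB livers, against 105, 118 and 122 TPM in the vehicle livers, at 0.90 (SE 0.43). Polr2e, shared with RNA polymerase II, had 66.6, 108 and 105 TPM in the rhCYGB livers, against 69, 82.8 and 81.4 TPM in the vehicle livers, at 1.13 (SE 0.50). In both, rhCYGB replicates 2 and 3 were above every vehicle liver. Their difference from the ribosomal protein genes was not tested.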
